A study of Bos taurus with 20 samples.

Results

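ENSBTAG00000043570 is 1 gene of the 27607 in a table of transcripts from frozen-thawed bull spermatozoa. It was picked on its measured values: in 1 bull its level was over 10 times that of the next highest bull. The study compared Holstein-Friesian bulls of high fertility (High) with bulls of low fertility (Low), classes that the submitters took from a statistical model adjusted for the animal. All 20 libraries, 10 per class, held total RNA of spermatozoa from 1 bull each, with semen of 3 ejaculates pooled before extraction, and no treatment or genotype distinguishes the groups. High replicate 9 and Low replicate 8 carry the same profile for every gene under opposite labels and were left out, so 18 libraries were described, 9 per class. No ages of the bulls were used here.

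Mature spermatozoa are transcriptionally silent, with their chromatin packed by protamines. Their RNA is mostly left over from spermatogenesis, is scarce and is partly fragmented, and semen can also carry a few somatic cells. The files do not pair this identifier with a symbol and 0 of their identifiers matched the reference gene table, so the gene's product, position and transcript class are not given here, no sequence is printed, and the sperm label was not checked against marker genes. Levels below are a normalised signal close to CPM (counts per 1000000 reads). In bulk RNA such a level cannot separate fewer cells that carry a transcript from less RNA per cell.

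Library size differed between bulls. In units of 1000000 reads (M), recovered totals ran from 9.43 M to 49.5 M, with a median of 14.5 M, and between 708 and 3720 genes were above 0 in a library. The library with the extreme level, High replicate 17, had 9.90 M reads, the second lowest total of the 18, and 2020 genes above 0, at place 10 counted from the poorest. Its 10 most abundant genes took 29.9% of its signal, inside the range of 22.5% to 32.8% over the 18 libraries.

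ENSBTAG00000043570 was detected in most bulls, above 75% of the genes detected there in 10 of the 13 libraries other than High replicate 17 that held it, and in 1 bull it stood among the leading transcripts. In the High bulls its value was 0 in replicate 2, 763 in replicate 3, 41.8 in replicate 6, 218 in replicate 10, 497 in replicate 12, 34.7 in replicate 14, 581 in replicate 15, 651 in replicate 16 and 11574 in replicate 17. In the Low bulls it was 204 in replicate 1, 228 in replicate 4, 918 in replicate 5, 352 in replicate 7, 0 in replicate 11, 819 in replicate 13, 0 in replicate 18, 42.3 in replicate 19 and 0 in replicate 20. Apart from High replicate 17 the classes overlapped, with High bulls from 0 to 763 and Low bulls from 0 to 918, and libraries at 0 stood in both. The gene was detected in 14 of 18 libraries, 8 of 9 High and 6 of 9 Low.

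**Figure D1:**
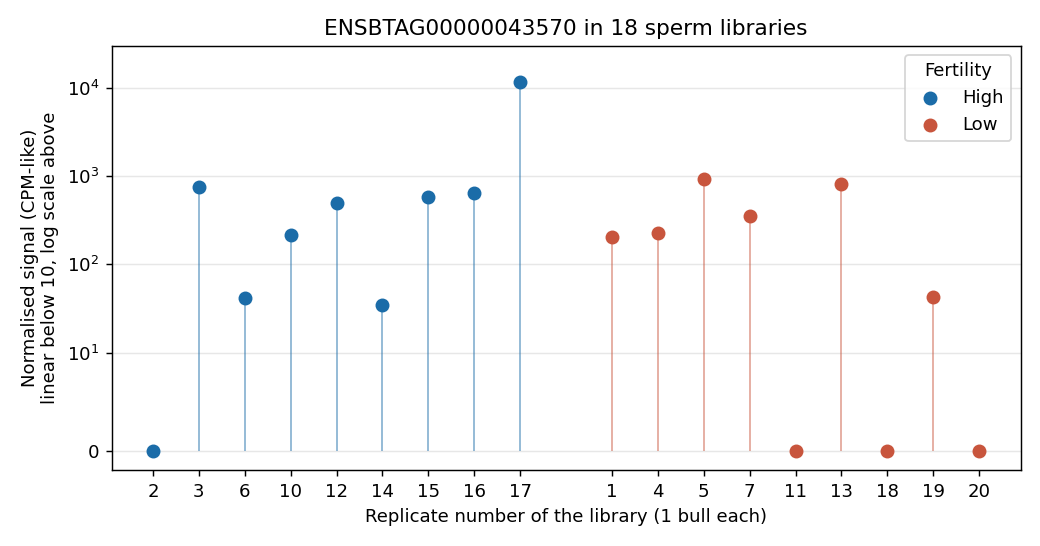
Normalised signal of ENSBTAG00000043570 (vertical axis, CPM-like, linear below 10 and logarithmic above) in each of the 18 libraries, 1 point per bull, ordered by replicate number within High (blue) and Low (red). High replicate 17 lies at 11574, the other 13 libraries that detect the gene lie between 34.7 and 918, and 4 libraries lie at 0.

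The level in High replicate 17 was the value that chose the gene, so it is given as a description without a test. It rested on 100220 reads, and the 95% counting interval of the value (exact Poisson) was 11503 to 11646. It was 12.6 times the next highest level, in Low replicate 5 (95% counting range 12.3 to 12.9 from the limits of the 2 intervals). It was 32.9 times the median of the 13 other libraries that detect the gene, and 333 times the lowest of them. The second level, by contrast, was 1.12 times the third. These intervals cover counting error only, since the reads carry no molecular identifiers used here, and the spread between repeat libraries of 1 bull was not measured.

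The size of that gap depended on how the libraries were put on a common scale. Rescaling each library to the same sum gave a ratio of 11.7, and scaling by the median ratio of genes above 0 in every library gave 9.33, under the 10-fold limit by which the gene was chosen. Counted as reads with no scaling at all, the 100220 reads of High replicate 17 were 6.34 times the 15801 of Low replicate 5, whose library was deeper. High replicate 17 was the highest library on each of these scales.

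As a share of the library, the gene took 1.01% of the summed values of High replicate 17 (95% exact Clopper-Pearson interval 1.01% to 1.02%). In the other 17 libraries the share was 0.0303% ± 0.0320 (SD, n = 17), with a highest value of 0.0863% in Low replicate 13. The gene held rank 16 of the 2020 genes detected in High replicate 17. Where another library detected it, its rank lay between 172 (Low replicate 13) and 2167 (High replicate 14), with a median of 362. Of its values summed over the 18 libraries, 68.4% came from High replicate 17. The leading transcripts of that bull were ENSBTAG00000012383 at 57488, ENSBTAG00000020654 at 47948 and ENSBTAG00000040318 at 44332. Each of these was above 0 in all 18 libraries and higher in at least 1 other bull, unlike ENSBTAG00000043570.

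Below High replicate 17 the levels stepped down from 918 to 204 by at most 1.54-fold at a time, and then came a gap. Low replicate 1 at 204 was 4.84 times Low replicate 19 at 42.3, and High replicates 6 and 14 lay at or just under that low level. Of the 14 steps between neighbours down to the first library at 0, 3 were within counting error: Low replicate 4 and High replicate 10, High replicate 10 and Low replicate 1, and Low replicate 19 and High replicate 6. The other neighbours differed beyond counting error, which says nothing of how a second library from the same bull would have ranked.

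The 4 libraries at 0 were at the ends of the range of library richness. High replicate 2 (708 genes above 0), Low replicate 11 (879) and Low replicate 20 (1223) were the poorest in genes, while Low replicate 18 (3720) was the richest. With a floor of 3 reads, a 0 allowed values up to 0.233 in High replicate 2, 0.155 in Low replicate 11, 0.203 in Low replicate 18 and 0.232 in Low replicate 20. These limits take a 0 as a count of 0 reads, and whether low counts were cut before deposit was not tested. The lowest detected level, 34.7 in High replicate 14, rested on 1231 reads, and the fewest reads in a library that detected the gene were 513, in Low replicate 19. No library held a trace of a few reads: the gene was at 0 or at 513 reads or more. Such low values were few for all genes, at 57 to 127 per library with up to 20 reads, among 708 to 3720 genes detected. The gap is therefore not shown to be particular to this gene.

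**Figure D2:**
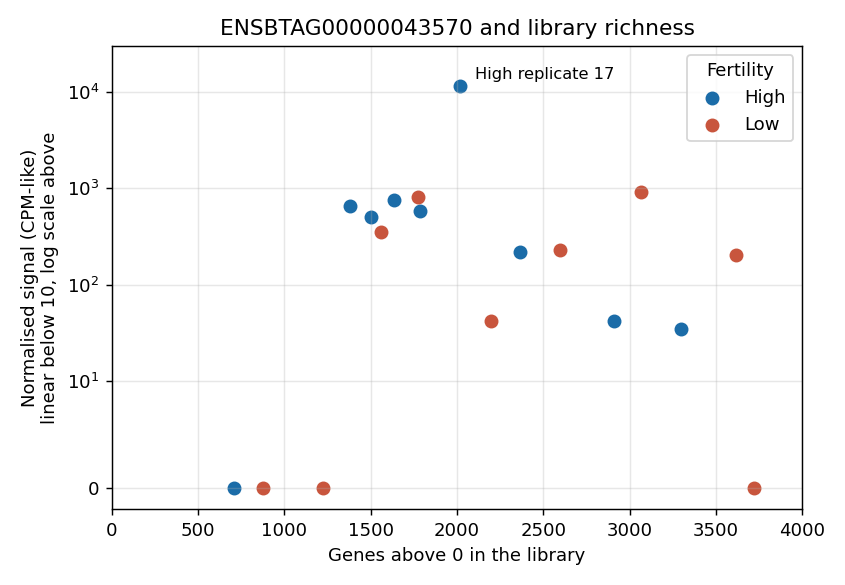
Normalised signal of ENSBTAG00000043570 (vertical axis, CPM-like, linear below 10 and logarithmic above) against the number of genes above 0 in the library (horizontal axis), 1 point per bull, High in blue and Low in red. The 3 libraries with the fewest genes and the library with the most lie at 0, and High replicate 17 lies at 2020 genes, in the middle of the horizontal range.

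Over the 17 libraries other than High replicate 17, the level on the log2(value + 1) scale followed none of 3 library measures detectably. Against the log2 read total, Pearson's r was 0.148 (permutation p = 0.583, adjusted over 3 relations 0.889) and Spearman's rho 0.111 (permutation p = 0.669, adjusted 0.886). With the totals farthest from the median, High replicate 14 and Low replicate 1, left out, r was 0.277. Against the number of genes above 0, r was 0.139 (permutation p = 0.593, adjusted 0.889) and rho 0.0506 (permutation p = 0.847, adjusted 0.886). Leaving out Low replicates 18 and 1 gave r = 0.402. Against the share of the 10 most abundant genes, r was -0.000317 (permutation p = 0.999, adjusted 0.999) and rho 0.0382 (permutation p = 0.886, adjusted 0.886), with r = 0.115 without High replicate 6 and Low replicate 5. Within the Low bulls r with the log2 read total was 0.612 (exact permutation p = 0.0840, adjusted 0.252, n = 9), and within the 8 High bulls -0.143 (exact permutation p = 0.692, adjusted 0.843, n = 8). The latter turned to 0.332 without High replicates 14 and 16, while the former was 0.478 without Low replicates 11 and 1. With the number of genes above 0, r within Low was 0.240 (exact permutation p = 0.518, adjusted 0.697, n = 9) and 0.731 without Low replicates 18 and 1. Within High it was 0.0835 (exact permutation p = 0.843, adjusted 0.843, n = 8) and 0.670 without High replicates 14 and 6. The r values with libraries left out rest on fewer bulls and were not tested, so they are given as description only.

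The study's question was whether sperm transcripts differ with fertility, and for this gene the classes were not detectably different once the bull that chose it was set aside. Without High replicate 17, High bulls averaged 348 ± 309 (SD, n = 8) and Low bulls 285 ± 354 (SD, n = 9). The medians were 358 and 204. On the log2(value + 1) scale the means were 6.93 ± 3.30 (SD, n = 8) and 5.44 ± 4.27 (SD, n = 9), a difference of 1.49 (SE 1.72, 95% interval -2.01 to 4.99), smaller than either SD. In limma, fitted over the 1357 genes that reached a value of 1 in 9 or more of the 17 libraries, the Benjamini-Hochberg adjusted p was 0.996 (unadjusted 0.394), and a two-sided exact permutation test of the same difference gave p = 0.438. The interval reaches from a 2.01 lower to a 4.99 higher log2 level in High, so differences of up to those sizes were not excluded by these bulls. The size of the log2 difference depended on the constant added, which sets where the libraries at 0 lie (1 in High, 3 in Low). With 0.1 or 10 added in place of 1, the difference was 2.18 or 0.84 log2. Detection enters that difference through the libraries at 0. Taken alone it did not differ detectably, at 7 of 8 High and 6 of 9 Low bulls (two-sided Fisher's exact p = 0.576).

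That result was the usual one in this table. By limma 0 of the 1357 genes (0%) passed an adjusted p of 0.05, with 43 at an unadjusted p under 0.05. On the recovered reads of the 7 libraries whose read steps could be checked, edgeR's quasi-likelihood test gave 0 genes and DESeq2 gave 105 of 3079, with an adjusted p for ENSBTAG00000043570 of 0.99996 and 0.999. In those fits its difference had the opposite sign, at -0.75 log2 in edgeR and -0.67 log2 in DESeq2. They held 4 High bulls (replicates 6, 10, 14 and 15, at 41.8, 218, 34.7 and 581) and 3 Low bulls (replicates 1, 5 and 18, at 204, 918 and 0). By limma the same 7 libraries gave 1.04 log2. Why the sign differed between methods was not tested. The median difference over all 1357 genes was -0.28 log2, and 28.7% of them had a larger difference in size than ENSBTAG00000043570. With High replicate 17 included, the mean in High became 1596 ± 3753 (SD, n = 9), against a median of 497, and that bull held 80.6% of the summed High values of the gene.

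A gap of this kind was rare among genes seen in many bulls. Over the 1458 genes that reached a value of 1 in 9 or more of the 18 libraries, the highest library was a median of 1.30 times the next, and 99% of genes were below 3.76 times. The ratio was over 10 in 2 genes (0.137%), and over 5 in 4. Just inside the limit of 10 stood ENSBTAG00000043570 at 12.6 and ENSBTAG00000054826 at 12.5, the latter in Low replicate 13, where its value was 96.6 against 7.74 in the next library. Just outside stood ENSBTAG00000043567 at 8.45, again in High replicate 17, and ENSBTAG00000004269 at 5.81 in High replicate 2. Among the 5383 genes above 0 in at least 2 libraries, which include those seen in few bulls, 4.40% had a ratio over 10. Since this ratio chose ENSBTAG00000043570, its place in the distribution is not evidence about it.

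**Figure D3:**
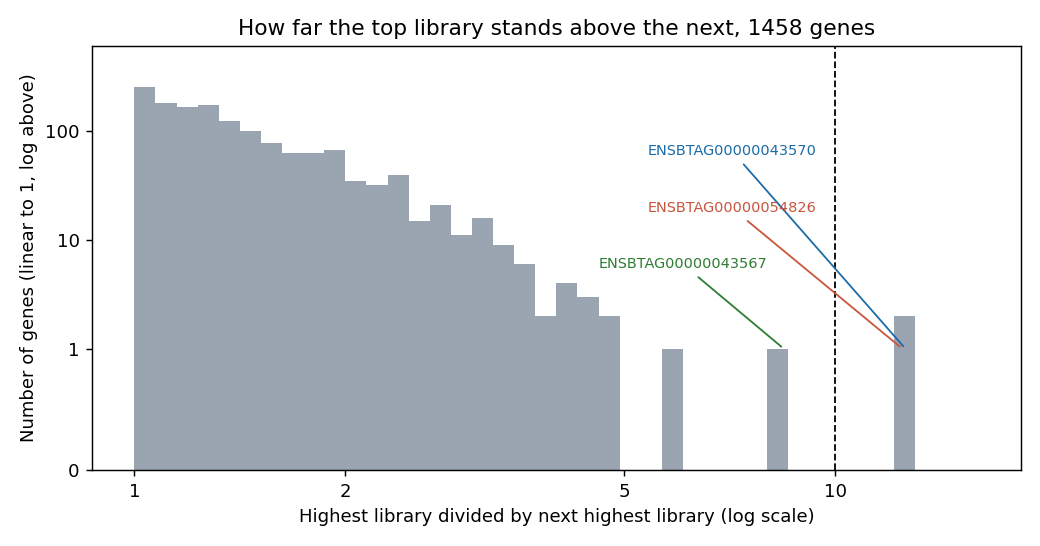
Number of genes (vertical axis, linear to 1 and logarithmic above) by the ratio of their highest to their next highest library (horizontal axis, log scale), for 1458 genes that reached a value of 1 in 9 or more of 18 libraries. The dashed line marks a ratio of 10. ENSBTAG00000043570 (12.6) and ENSBTAG00000054826 (12.5) lie to its right and ENSBTAG00000043567 (8.45) to its left, while the median ratio is 1.30.

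High replicate 17 lay within the range of the other libraries in how often it led and how often by over 2-fold. At over 5-fold it lay above that range. It was the highest library for 71 of the 1458 genes, where the other 17 libraries led for 43 to 192 (median 78). It exceeded the next library over 2-fold in 11 genes, against 2 to 31 (median 9) in the others, and over 5-fold in 2 genes, against 0 or 1. The 2 genes were ENSBTAG00000043570, which was picked on this ratio, and ENSBTAG00000043567, so the count is given as description only.

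ENSBTAG00000043567 came closest to the pattern. Its value in High replicate 17 was 5191, against 614 in High replicate 3 and 432 in Low replicate 7, the next highest bulls. It was 0 in High replicates 2, 6, 10 and 12 and in Low replicates 5 and 11, and lay between 15.3 and 357 in the remaining libraries. Both genes were detected in 10 libraries, ENSBTAG00000043570 alone in 4, ENSBTAG00000043567 alone in 2, and neither in 2. Together they made up 1.47% of the signal of High replicate 17. Outside that bull the levels ran together only loosely: over 17 libraries Pearson's r of the log2(value + 1) levels was 0.244 and Spearman's rho 0.301, against 0.388 and 0.414 with High replicate 17, all given as description. Low replicate 5, second for ENSBTAG00000043570 at 918, was at 0 for ENSBTAG00000043567.

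Within the same 1458 genes, the others highest in this bull had smaller ratios. Among the 5383 genes above 0 in at least 2 libraries, which include those seen in few bulls, 16 had a ratio over 10 in High replicate 17. With any of the 18 libraries as the highest, 237 of the 5383 did. ENSBTAG00000015169 was at 8976 in High replicate 17 and at 421 to 1978 in the other 17 libraries, all of which detected it, a ratio of 4.54 to the next, with r = -0.321 to ENSBTAG00000043570 over the 17. ENSBTAG00000008805 was at 3111 against 737 in High replicate 2, the next (ratio 4.22), and at 0 in High replicate 16 and Low replicates 7 and 20, with r = -0.119. The remaining 6 of the 10 genes with the highest ratios in this bull, among the 1458, ran from 3.09 (ENSBTAG00000054175, at 20.1 against 6.49) to 2.30 (ENSBTAG00000000225, at 366 against 159). Of the 10, 4 were detected in all 18 libraries.

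**Figure D4:**
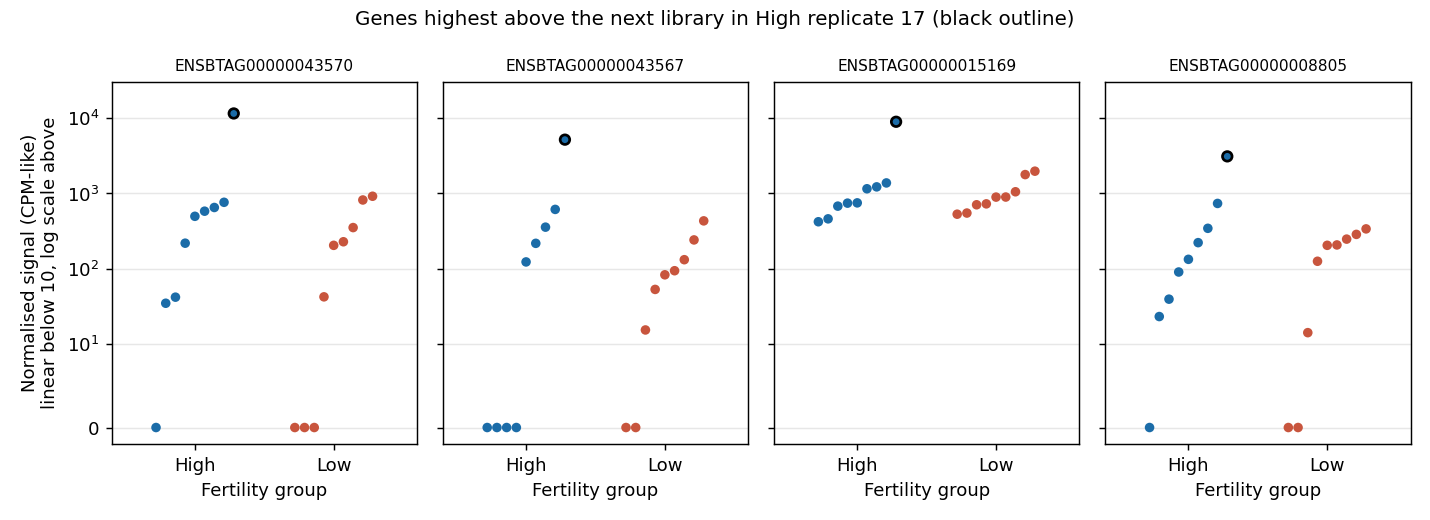
Normalised signal (vertical axis, CPM-like, linear below 10 and logarithmic above) of the 4 genes with the highest ratio of High replicate 17 to the next library among the 1458 that reached a value of 1 in 9 or more libraries, 1 panel per gene and 1 point per bull, sorted within High (blue) and Low (red). The black outline marks High replicate 17, at 11574, 5191, 8976 and 3111 from left to right, above every other bull in each panel.

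Among the 171 genes that reached a value of 1 in all 18 bulls, none tracked ENSBTAG00000043570 closely over the 18 libraries. The highest Pearson correlation of log2(value + 1) levels over 18 libraries was 0.609, for ENSBTAG00000019568, followed by 0.592 for ENSBTAG00000020860, 0.572 for ENSBTAG00000007097, 0.559 for ENSBTAG00000002475 and 0.519 for ENSBTAG00000012267. The median over the 171 genes was 0.118 and the lowest -0.541. Only ENSBTAG00000019568 of these 5 was highest in High replicate 17, at 4662 against 4139 in High replicate 16. Its range over the bulls, 246 to 4662, was far narrower than that of ENSBTAG00000043570. The 171 leave out every gene under 1 in any bull, ENSBTAG00000043570 itself included, so genes missing from the same bulls were not compared.

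By rank over the 17 libraries without that bull, ENSBTAG00000020496 led with Spearman's rho = 0.529, followed by ENSBTAG00000020860 at 0.487, ENSBTAG00000002475 at 0.481, ENSBTAG00000007966 at 0.387 and ENSBTAG00000012267 at 0.338. The median was 0.00370. The lists shared 3 of their 5 genes. On the log2(value + 1) scale over the same 17 libraries, Pearson's r was 0.662 for ENSBTAG00000020496, above the highest found over 18. For ENSBTAG00000019568 it was 0.528, against 0.609 with High replicate 17. ENSBTAG00000020496 was at 517 in High replicate 17, which ranked 15 of 18 for it, and at 6430 in Low replicate 1, so the likeness there did not extend to the extreme bull. The lists hold the highest of 171 values over libraries that share normalisation and differ in depth. All these correlations are given as description only.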

How the data were processed

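RNA was purified with Trizol and sequenced after low-input NEBNext library preparation, per the labels' protocols. Build UMD3.1, STAR 2.6.1, cutadapt 2.6, FastQC 0.11.8, edgeR 3.5 and R 3.4 stand in the submitters' processing notes without roles. The sources used here give no counter, strand setting or annotation. The authors deposited a normalised signal for each gene: each column is whole reads times 1 factor, and the geometric mean of the 20 column sums is 1000000. Dividing by the smallest step made 100% of values above 0 whole within 0.1 of a read, although 13 columns, that of High replicate 17 included, hold under 100 values of up to 20 steps, too few for a separate check.

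The gene and all comparisons were chosen with earlier results of these data known. Named genes are the 5 most alike by each correlation, the 10 with the highest ratio in High replicate 17 and its 3 most abundant; others in the plot of ratios were named after their values were seen. Since the values are not counts, limma 3.58.1 with a trend (R 4.3.3) was run on log2(value + 1), High replicate 17 left out. Benjamini-Hochberg adjustment ran over all genes tested. The fit code was run on simulated normal log2 values, with changes added only to genes of low spread. That run does not cover a gene undetected in some libraries, such as ENSBTAG00000043570. Correlations used 100000 permutations, or all of them within a class (Python 3.11.15, scipy 1.17.1). Alternatives were other pseudocounts, filters, scalings and libraries, and edgeR 4.0.16 and DESeq2 1.42.0 on recovered reads. The gene lists written as symbols were not tested.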

Additional observations from a re-analysis of the deposited data

Results flagged for a closer look

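Within each class, the highest and lowest library were compared with the rest for 4 measures (8 groups): read total, genes above 0, the part of the signal in the top 10 genes, and the level of ENSBTAG00000043570 without High replicate 17, whose value chose the gene. By chance about 1 in 20 groups holds such a library if values are roughly normal. High replicate 14 stood above the other High bulls with 49.5 M reads (M, 1000000), and High replicate 6 below them with 22.5% of its signal in the 10 most abundant genes. Their levels of ENSBTAG00000043570 were the lowest detected in High, at 34.7 and 41.8. Within the 8 High bulls the level had r = -0.143 with the log2 read total (exact permutation p = 0.692). Without High replicates 14 and 16, r was 0.332, a value that was not tested. A part of depth in these 2 low levels was not tested. The profile deposited under both High replicate 9 and Low replicate 8, used in neither class, held ENSBTAG00000043570 at 265 (3587 reads), between Low replicates 7 and 4.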

How the results depend on the processing

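The class difference of ENSBTAG00000043570 passed no threshold under any of the settings run. Over 13 settings other than leaving out a library it kept its direction. It turned on the recovered reads of 7 libraries, to -0.75 log2 with edgeR, -0.67 with edgeR and DESeq2 size factors and -0.67 with DESeq2, while limma on the same 7, added after the data were seen, gave 1.04. Leaving out 1 library gave 0.81 (Low replicate 11, 18 or 20, each at 0) to 2.48 (High replicate 2, at 0), with adjusted p from 0.931 to 0.9998 in limma and exact permutation p from 0.173 to 0.670. The count of genes called was 0 throughout except 105 with DESeq2 and 1 with limma on 7 libraries. The filter for a value of at least 1 in every library drops the gene.

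The ratio of High replicate 17 to the next bull was 11.7 with equal sums, 11.8 with the gene left out of the sums, 9.33 with median-ratio scaling, 6.34 in unscaled reads and 14.1 without Low replicate 5. Its value equalled 1.48% of the sum over genes above 0 in every library. The count of genes over 10 times the next library there was 1, but 0 with median-ratio scaling or with genes at 1 or more in every library, 2 at over 5 times and 16 among genes above 0 in at least 2 libraries (added after the data were seen). With any of the 18 libraries as the highest, that last count was 237 of 5383 genes.

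The correlation with the share of the 10 most abundant genes, close to 0, turned to 0.0455 with a pseudocount of 10, 0.00606 with equal sums, 0.00607 with the gene left out of the sums and 0.0367 with High replicate 17 kept, and ran from -0.114 to 0.183 when 1 library was left out. That with genes above 0 ran from -0.0288 (without High replicate 2) to 0.392, and that with log2 reads from 0.0378 to 0.291. No paired analysis was possible because no replicate number occurs in both classes. With the floor of 3 reads a 0 allowed a value of at most 0.233, against 34.7 for the lowest level detected. By the exact Poisson 95% limit the highest value allowed was 0.287, in High replicate 2. Both limits take a 0 as a count of 0 reads. Low replicate 18 was at 0 with 17.1 M reads (M, 1000000).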
